A study of Mus musculus with 12 samples.

Results

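The MHC class I genes described here are 10 named genes of the antigen presentation pathway, out of 21408 genes in the deposited table, and all 10 have a row there. They are the heavy chains H2-K1, H2-D1, H2-Q7 and H2-T23, the light chain B2m, the peptide transporter subunits Tap1 and Tap2, the loading protein Tapbp (tapasin), and the immunoproteasome subunits Psmb8 and Psmb9. The set was drawn up with earlier oxygen comparisons of H2-K1 and H2-D1 in these libraries known. Differences between oxygen conditions in those 2 genes are therefore given as descriptions without a p-value.

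The cells came from retinas of C57B6 mouse pups and were profiled by Drop-seq, which captures single cells in droplets and counts the 3′ ends of their transcripts by unique molecular identifiers (UMIs). In oxygen-induced retinopathy (OIR), a mouse model of retinal ischaemia, pups with a foster mother breathed 75% O2 between postnatal days 7 and 12 and then room air. Normoxic (NORM) pups stayed with their own mother in room air throughout. Retinas were taken at postnatal day 14 (P14) or 17 (P17), either whole or after depletion of rods. The NORM arm comprised 4 libraries, a single one per combination of age and fraction. The OIR arm comprised 8: at P14, 3 from whole retina and 2 depleted of rods, and at P17, 2 from whole retina and 1 depleted of rods. The labels do not tie libraries to animals. The p-values therefore reflect variation among libraries, which may be technical.

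MHC class I molecules carry peptides from inside the cell to its surface, where CD8 T cells and natural killer cells read them. Proteasomes cut the peptides, the Tap1-Tap2 pump moves them into the endoplasmic reticulum, and tapasin holds the heavy chain and B2m there until a peptide is loaded. Most classical heavy chains need B2m to reach the surface. Neurons are known for low class I expression compared with immune and vascular cells, and interferons raise most genes of the pathway.

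A promoter entry in RefSeq (GRCm38.p6) was found for 9 of the genes, all but Tap2. The promoters printed below are those whose 250 bases before the start hold at most 1 base of an annotated exon. That number was 0 for H2-K1 and H2-Q7 and 1 for B2m. Capitals mark letters matching 5 motifs searched on both strands: an NF-kB motif (GGGNNTTCC), an interferon-stimulated response element core (GAAANNGAA), a gamma-activated site (TTCNNNGAA), an X2 box core (TGACG) and a Y box (ATTGG). Each stretch ends at the base before the first annotated exon.
H2-K1, chr17:34000348-34000473, minus strand: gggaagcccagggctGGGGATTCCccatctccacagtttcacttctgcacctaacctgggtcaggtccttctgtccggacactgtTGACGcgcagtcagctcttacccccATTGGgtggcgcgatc
H2-Q7, chr17:35439007-35439154, plus strand: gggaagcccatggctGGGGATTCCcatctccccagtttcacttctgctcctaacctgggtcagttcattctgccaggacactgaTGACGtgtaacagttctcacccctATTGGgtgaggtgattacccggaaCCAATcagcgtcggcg
B2m, chr2:122147533-122147685, plus strand: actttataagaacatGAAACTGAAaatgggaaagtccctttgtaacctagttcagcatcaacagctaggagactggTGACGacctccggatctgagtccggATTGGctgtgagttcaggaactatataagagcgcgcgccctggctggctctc
Both heavy-chain promoters carry the NF-kB letters followed by the X2 core and the Y box, and B2m carries the letters of the interferon-stimulated core, the X2 core and the Y box. The search took these exact letters only, so variants of a motif are unmarked. A missing match therefore does not show that a gene lacks such an element. In the 250 bases before the start, the NF-kB letters were found in 3 of 9 genes (H2-K1, H2-D1 and H2-Q7) and in 4.98% of 32851 promoters. The X2 core was found in 6 of 9 genes and 17.77% of promoters, and the Y box in 8 of 9 and 33.85%. The interferon-stimulated core was in B2m and H2-T23 (7.13% of promoters), and the gamma-activated site in Psmb8 alone (7.02%). For H2-D1, Tap1, Tapbp, Psmb8 and Psmb9 all 250 bases lie in annotated exons, and for H2-T23 154 do. Such matches describe the letters and do not show a site in use.

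In GRCm38 with GENCODE M21 names, 9 of the genes lie on chromosome 17 and B2m on chromosome 2. H2-K1 spans 33996017 to 34000347, H2-D1 35262730 to 35267499, H2-Q7 35439155 to 35443773 and H2-T23 36029773 to 36032855. Psmb9 (34181987 to 34187764) and Tap1 (34187553 to 34197225) overlap at their starts on opposite strands, with Psmb8 (34197721 to 34201454) and Tap2 (34203527 to 34216321) next to them. Tapbp spans 33915899 to 33929292 and B2m 122147686 to 122153083. H2-T23, B2m, Tap2, Tapbp and Psmb8 also overlap another gene, and since no source says whether the counting used strand, overlapping opposite-strand genes cannot be told apart. Of the 50-base words in the last 300 bases of their transcripts, H2-K1 shared 9.54%, H2-D1 13.55% and H2-T23 50.6% with other genes. Part of their signal could therefore belong to another gene. H2-Q7 and B2m shared 0%. The heavy chains form a family of related genes, and how reads matching several genes were handled is not given in the sources used here.

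Libraries held 569 to 3409 cells each (25472 in all), with a median depth from 432 UMIs per cell (NORM, P17, whole retina) to 1794.5 (OIR, P17, whole retina), and 14 cell barcodes occurred in more than 1 library. After removal of cells with under 200 genes, 24772 cells were clustered without the 10 genes or their pathway and named from marker genes. The classes are called rod, cone, bipolar and so on for short, but each name stands for a marker-like class and not for a proven cell type. A bipolar cluster led by Lhx4 (1457 cells) and a cluster led by Optc (281 cells) stayed unnamed. No doublet caller was run. Lens-like cells made up 27.9% and 30.7% of whole-retina OIR replicates 2 and 3 at P14, and microglia-like cells 0.328% to 5.722% of a library. Rod-like cells were 0.050% to 1.605% of the rod-depleted and 9.197% to 52.86% of the whole-retina libraries. The level of a gene below is its mean UMIs per 10000 UMIs of a cell, averaged over the cells of a class in 1 library with at least 20 such cells.

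B2m, the light chain shared by class I molecules, was highest in microglia. In the 5 OIR libraries its microglial level was 64.7 ± 16.6 (SD, n = 5), between 53.0 and 91.2, and in the 2 NORM libraries it was 63.2 and 86.2. Next in OIR came endothelial cells (13.2 ± 4.92, n = 2), pericytes (11.1 ± 1.93, n = 3) and astrocytes (9.96 ± 1.47, n = 2), whose ranges overlapped one another. The Optc-led cluster (5.80 ± 2.17, n = 3) and Müller glia (3.64 ± 1.31, n = 8) followed, and they also overlapped. Every Müller library in OIR exceeded every library of the 7 neuron classes. Those ran from ganglion cells at 0.555 ± 0.440 (n = 6), horizontal cells at 0.530 ± 0.400 (n = 4) and amacrine cells at 0.480 ± 0.238 (n = 8) down to rods at 0.109 ± 0.0508 (n = 5), with overlapping ranges throughout.

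H2-D1, a classical heavy chain, had another order among the neurons. Microglia again led, at 15.3 ± 5.73 (n = 5) in OIR, with endothelial cells at 5.84 ± 0.350 (n = 2) and astrocytes at 2.37 ± 0.405 (n = 2), and these 3 ranges did not overlap. Ganglion cells (2.01 ± 0.746, n = 6), cones (1.83 ± 0.703, n = 8) and amacrine cells (1.58 ± 0.401, n = 8) came next, level with pericytes (1.55 ± 0.786, n = 3) and Müller glia (1.47 ± 0.857, n = 8). Horizontal cells (1.17 ± 0.793, n = 4), cone bipolar cells (0.792 ± 0.294, n = 8), rods (0.698 ± 0.150, n = 5) and rod bipolar cells (0.335 ± 0.182, n = 8) were lower. From astrocytes downwards each class overlapped the next.

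H2-K1, the other classical heavy chain, was at 7.06 ± 3.46 (n = 5) in OIR microglia, and the lowest of these libraries (3.96) exceeded the highest astrocyte library (1.97). Horizontal cells (1.57 ± 0.977, n = 4) and Müller glia (1.49 ± 0.775, n = 8) had the next highest levels outside vessels and astrocytes. Endothelial cells were at 1.77 ± 0.0401 (n = 2) and pericytes at 0.252 ± 0.0399 (n = 3). Cone bipolar cells (0.645 ± 0.396), amacrine cells (0.609 ± 0.370), cones (0.547 ± 0.468) and rod bipolar cells (0.343 ± 0.0630, each n = 8) overlapped in that order. Rods were at 0.0782 ± 0.0757 (n = 5). Across 12 class means, genes whose levels followed H2-K1 closely included Ctsa (Pearson r = 0.910), Rnf130 (0.893), Mfsd1 (0.890) and Grn (0.883). For B2m they were Tspo (0.985), 0610031J06Rik (0.973), Blvrb (0.971), Cyfip1 (0.970) and Rhog (0.965). These correlations rest on classes from the same libraries and are descriptions.

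H2-Q7, a heavy chain of the Q region usually counted among the nonclassical class I genes, was arranged unlike the others. Its highest OIR levels were in the Lhx4-led bipolar cluster (0.445 ± 0.310, n = 8), rod bipolar cells (0.381 ± 0.142, n = 8) and cone bipolar cells (0.333 ± 0.260, n = 8). Amacrine cells (0.250 ± 0.191, n = 8) and microglia (0.249 ± 0.136, n = 5) followed, and all 5 ranges overlapped. Müller glia were at 0.0730 ± 0.0371 (n = 8) and rods at 0.0158 ± 0.0239 (n = 5). No H2-Q7 UMI was counted in 1420 cones, which allows a level of up to 0.0165 and a share of cones with a UMI of up to 0.211% (3 counts, counting error only), nor in 376 pericytes (up to 0.0324). Over the class means H2-Q7 correlated with the other 9 genes at -0.212 to 0.243, while B2m correlated with Psmb8 at 0.946 and Psmb8 with Psmb9 at 0.961.

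**Figure D1:**
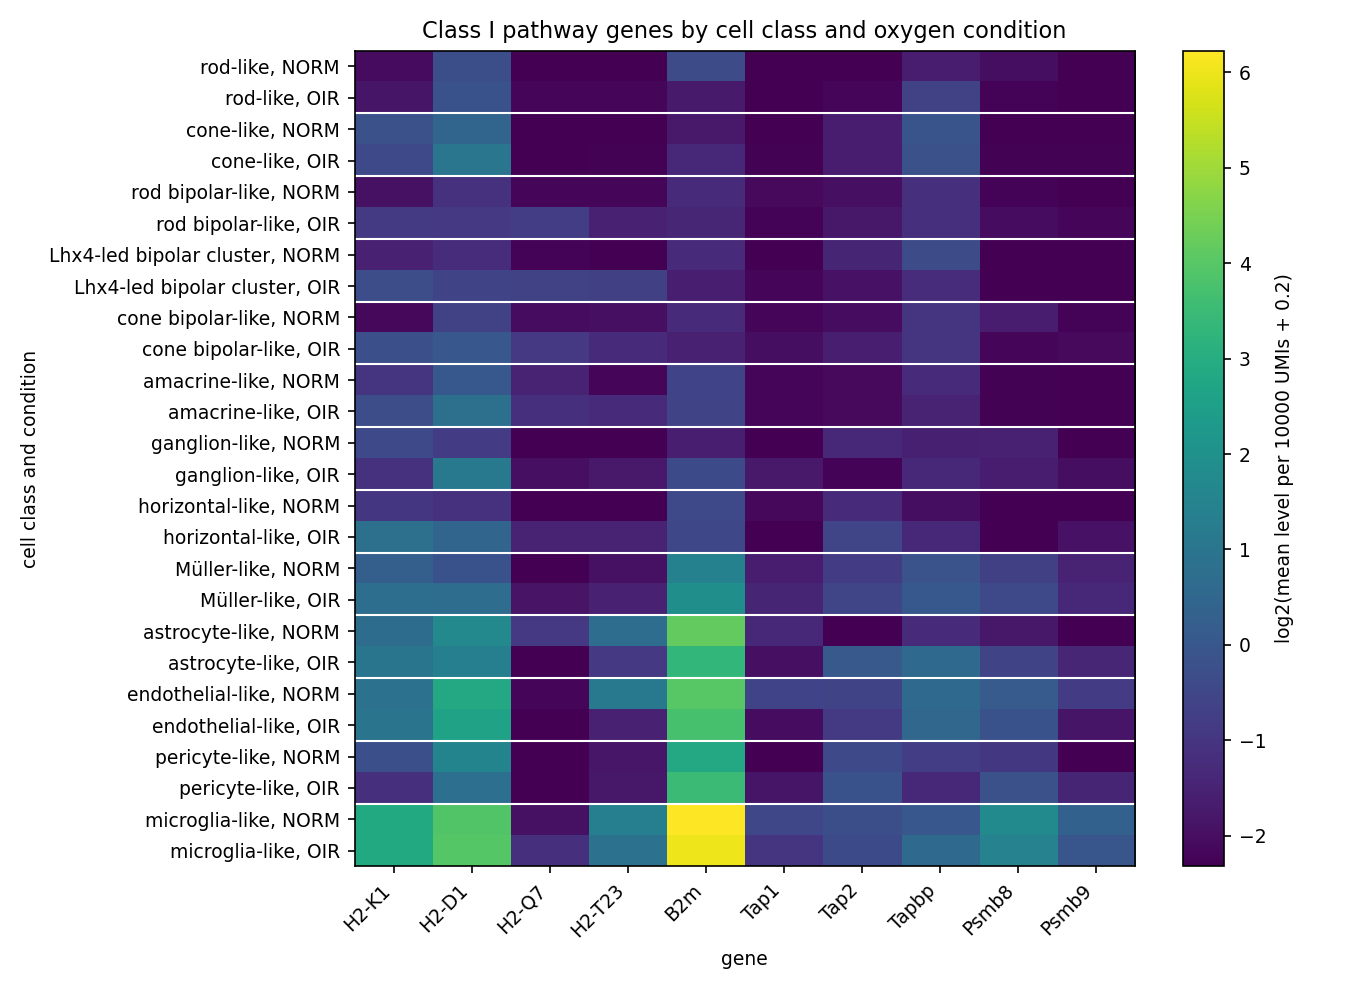
Levels of the 10 genes (UMIs per 10000) by cell class and oxygen condition; each column is a gene, each row a class and condition, and the colour gives log2(mean over libraries + 0.2). B2m, H2-D1, H2-K1, Psmb8 and Psmb9 were highest in microglia-like cells, whereas H2-Q7 was highest in bipolar classes of OIR retinas and at 0 in cones.

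H2-T23, which encodes Qa-1, a ligand of inhibitory receptors on natural killer cells, was at 1.65 ± 0.768 (n = 5) in OIR microglia and 1.62 and 3.18 in the NORM libraries. In the Lhx4-led bipolar cluster it was 0 in the 3 NORM libraries and 0.0677 to 1.05 in the 8 OIR libraries, which do not overlap. Amacrine cells had 0.0202 ± 0.0331 (n = 4) in NORM and 0.209 ± 0.117 (n = 8) in OIR, and cone bipolar cells 0.0566 ± 0.0567 and 0.218 ± 0.0609. The amacrine and cone bipolar levels were below the filter of the test, and the Lhx4-led cluster, being unnamed, was not tested. H2-T23 was tested in microglia alone (log2 difference -0.69 ± 0.55, adjusted p = 0.96). Its 3′ end shares 31.08% of words with Rab33b, so these values are uncertain.

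The peptide supply genes were low in neurons. Tap1 reached at most 0.101 in a neuron class (ganglion cells in OIR) and was at 0.499 and 0.301 in NORM and OIR microglia. Psmb8 reached 3.11 ± 0.349 (n = 2) and 2.56 ± 0.490 (n = 5) in microglia, 0.421 ± 0.169 (n = 4) and 0.542 ± 0.242 (n = 8) in Müller glia, and no UMI in 243 horizontal cells, which allows up to 0.0369. Psmb9 was at 1.07 ± 0.613 and 0.778 ± 0.428 in microglia and had no UMI in 4438 rods, which allows up to 0.00817. Tap2 was at 0.493 ± 0.107 (n = 8) in Müller glia, 0.490 ± 0.281 (n = 4) in horizontal cells and 0.560 ± 0.488 (n = 5) in microglia of OIR retinas. Pericyte libraries in OIR held 0.327 to 1.09 and the astrocyte libraries 0.708 and 1.01. The other neuron classes were lower, from 0.0138 ± 0.0233 (n = 6) in ganglion cells to 0.127 ± 0.0848 (n = 8) in cone bipolar cells. Tapbp in OIR was highest in the Optc-led cluster (2.34 ± 0.831, n = 3), followed by astrocytes (1.33 ± 0.737, n = 2), microglia (1.31 ± 0.719, n = 5), endothelial cells (1.20 ± 0.225, n = 2) and Müller glia (0.834 ± 0.217, n = 8). The microglial range overlapped each of the others. Cones were at 0.678 ± 0.133 (n = 8) and pericytes at 0.199 ± 0.180 (n = 3).

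The balance of light to heavy chain transcripts differed between cell classes. Summed over all libraries, per UMI of H2-K1 and H2-D1 together, B2m gave 4.45 UMIs in pericytes (exact 95% interval 3.76 to 5.29), 2.79 in microglia (2.62 to 2.97), 1.68 in endothelial cells (1.49 to 1.90) and 1.36 in Müller glia (1.27 to 1.46). In rod bipolar cells the ratio was 0.346 (0.285 to 0.418), in amacrine cells 0.221 (0.193 to 0.252), in cone bipolar cells 0.0987 (0.0713 to 0.134) and in cones 0.0681 (0.0447 to 0.0999). Each neuron class held fewer B2m than heavy chain UMIs in these sums. By library, pericytes ran from 2.32 to 8.39 and microglia from 1.97 to 3.92, which overlap. Endothelial libraries (1.34 to 1.87) lay within the range of Müller libraries. The pericyte ratio was 2.67 summed over NORM and 4.83 over OIR. Summed by condition, cone bipolar cells had 20 B2m per 39 heavy chain UMIs in NORM (0.513, 0.283 to 0.901) and 26 per 427 in OIR (0.0609, 0.0393 to 0.0905). These sums mix the fractions. The rod-depleted libraries held 4 per 6 and 15 per 17 in NORM, and ratios of 0 to 0.214 in OIR. The whole-retina libraries held 1 per 15 and 0 per 1 in NORM, and ratios of 0 to 0.0682 in OIR, so conditions overlapped there. Cones had 11 per 110 in NORM (interval of the ratio 0.0485 to 0.186) and 17 per 301 in OIR (0.0325 to 0.0920). By library, rod bipolar cells had ratios of 0.475 to 1.33 in NORM and 0 to 0.554 in OIR, some on fewer than 5 UMIs, which reach into the Müller range of 0.962 to 2.30. Intervals cover counting error only, and the ratio sets UMIs of 3′ ends side by side, not protein. H2-Q7 UMIs per UMI of H2-K1 and H2-D1 are given by condition. In rod bipolar cells they were 4 per 68 in NORM (0.0588, 0.0156 to 0.158) and 191 per 357 in OIR (0.535, 0.446 to 0.640), and in cone bipolar cells 2 per 39 and 75 per 427 (0.176, 0.136 to 0.225). In amacrine cells the ratio was 0.234 (0.159 to 0.337) in NORM and 0.126 (0.105 to 0.151) in OIR. Müller glia in OIR were at 0.0231 and microglia at 0.00560.

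**Figure D2:**
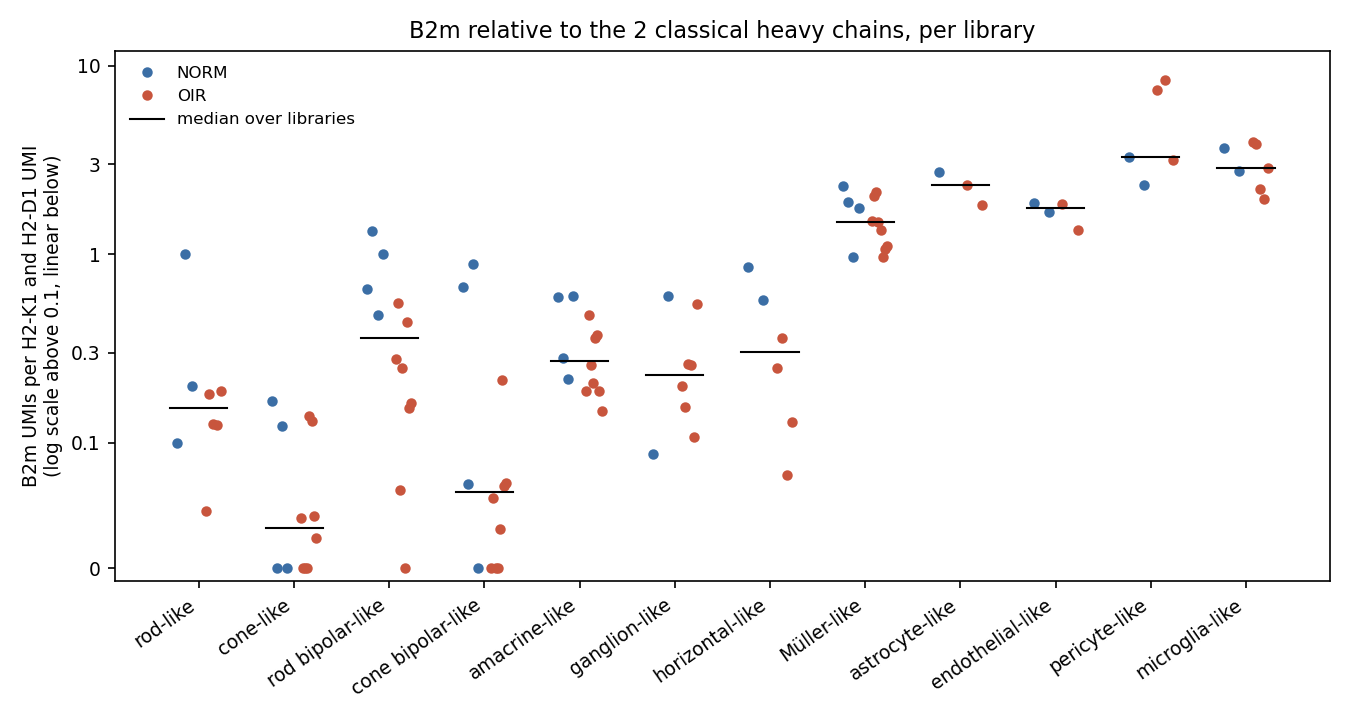
B2m UMIs per H2-K1 plus H2-D1 UMI by cell class, on an axis that is logarithmic above 0.1 and linear below; points are libraries (blue NORM, red OIR) and lines the median over libraries. Müller-like libraries lie between 0.962 and 2.30 and amacrine-like ones between 0.147 and 0.600.

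Free RNA from lysed cells enters every droplet, so each neuron class was tested against an expected ambient level. That level is the gene's mean in the library times an ambient share, the highest of 3 shares at which microglial, vascular and Müller marker lists appeared in the class. The median share over libraries was 11.8% in rod bipolar cells, 19.5% in ganglion cells, 21.4% in horizontal cells, 24.5% in cone bipolar cells, 28.7% in amacrine cells and 37.0% in cones. In rods it was 90.0%, and there Vtn, a gene of the vascular list, stood at 239% of its library level, as it did at 167% in cones. Of the 29 pairs of gene and neuron class with enough signal, 18 passed above the expectation and 4 below it (limma, Benjamini-Hochberg adjusted over all genes of a class). Over all genes, 73.3% of 53773 such pairs passed above it, so the genes' 62.1% is no higher than the background. By class, the share over all genes was 98.4% in rod bipolar, 96.6% in cone bipolar and 94.7% in amacrine cells. It was 87.1% in ganglion cells, 74.3% in horizontal cells, 58.8% in cones and 6.55% in rods. The values below therefore say for each gene whether its neuron signal exceeded this expectation, and single out nothing about the set. A pair needed a mean level of at least 0.2, observed or expected. Where the expected level was under 0.2, only a high observed level brought the pair into the test, which favoured passing above in advance.

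H2-D1 exceeded the expectation in 6 of 7 neuron classes. In amacrine cells 1.32 was observed against 0.310 expected, a log2 difference of 1.55 ± 0.13 (SE, adjusted p = 1.79e-11) with all 12 libraries above. The difference was 1.47 ± 0.21 in cones (adjusted p = 4.77e-08, 12 of 12 libraries) and 1.81 ± 0.24 in ganglion cells (adjusted p = 7.42e-13, 8 of 8). Cone bipolar (0.88 ± 0.16), horizontal (0.90 ± 0.33, 5 of 6 libraries) and rod bipolar cells (0.57 ± 0.12) also passed. In rod bipolar cells the expected level was 0.133, so H2-D1 was tested there only because its observed level was high. In ganglion cells the mean was 0.35 in the 2 NORM and 2.30 in the 6 OIR libraries, and in horizontal cells 0.09 in the 2 NORM and 1.31 in the 4 OIR libraries. In cone bipolar (0.77 and 0.93) and rod bipolar cells (0.60 and 0.56) NORM and OIR were closer. In rods H2-D1 did not pass (-0.31 ± 0.22, adjusted p = 0.328, 2 of 8 libraries above).

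H2-K1 exceeded it in 5 of 7 classes: horizontal cells by 1.58 ± 0.29 (adjusted p = 2.54e-06, 6 of 6), amacrine cells by 0.90 ± 0.13 (12 of 12), cones by 0.70 ± 0.24 (9 of 12), rod bipolar cells by 0.66 ± 0.14 (10 of 12) and cone bipolar cells by 0.66 ± 0.18 (8 of 12). Outside cones and rods the expected level of H2-K1 was at most 0.159, so it was tested there only because its observed level was high. The mean log2 difference by condition was 0.06 in NORM and 0.96 in OIR rod bipolar cells, -0.24 and 1.11 in cone bipolar cells, and 0.52 and 2.12 in horizontal cells, whereas in cones it was 1.30 and 0.41. The bipolar values for H2-K1 thus lay above the expectation in OIR and near or below it in NORM. In ganglion cells it did not pass (0.49 ± 0.29, adjusted p = 0.105), and in rods it lay below (-1.19 ± 0.25, adjusted p = 3.03e-05, 0 of 8 above). H2-Q7 exceeded it in each of the 3 classes tested. These were rod bipolar cells (0.92 ± 0.16, adjusted p = 3.51e-06, 10 of 12 libraries), amacrine cells (0.70 ± 0.14, 12 of 12) and cone bipolar cells (0.67 ± 0.18, 8 of 12, with 0.18 in NORM and 0.92 in OIR). Its expected level there was at most 0.0438, so it was tested only where its observed level was high. In the classes not tested, 0 cone and 0 rod libraries lay above the expectation. In horizontal cells 0 of 2 NORM and 1 of 4 OIR libraries did, and in ganglion cells 0 of 2 and 3 of 6. In rod bipolar cells the NORM libraries held 0.0180 against 0.00420 expected, with 2 of 4 above, and the OIR libraries 0.381 against 0.0250, with 8 of 8 above. Tapbp passed in cones (1.20 ± 0.21), rod bipolar (0.78 ± 0.13) and cone bipolar cells (0.62 ± 0.16), and Tap2 in horizontal cells (1.15 ± 0.30, adjusted p = 0.000619, 6 of 6). Tap2 too entered through its observed level, 0.394 against 0.0440 expected. So did Tapbp in cones (0.172 expected), rod bipolar (0.0497) and cone bipolar cells (0.0987).

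B2m passed above the expectation in 0 of 7 neuron classes (0 at an unadjusted p below 0.05 as well), although its observed level was not 0. In cones 0.166 was observed against 0.724 expected (-1.43 ± 0.21, adjusted p = 1.14e-07, 0 of 12 libraries above), in rods the difference was -1.60 ± 0.27 and in cone bipolar cells -0.87 ± 0.21. For amacrine (-0.03 ± 0.14, adjusted p = 0.855), ganglion (-0.12), horizontal (-0.17) and rod bipolar cells (-0.19 ± 0.13, adjusted p = 0.152) no difference was detected. With other estimates of the share this changed in 3 classes. B2m in amacrine cells passed with the microglial list alone (0.69 ± 0.16, adjusted p = 0.000139), the vascular list alone (0.44 ± 0.15) or a rod list alone (0.58 ± 0.16). It also passed with the median over the genes of each list (0.62 ± 0.15, adjusted p = 0.000174, 11 of 12 libraries), an estimate chosen after seeing the data. In ganglion cells it passed with that median (0.67 ± 0.31, adjusted p = 0.0318) and with the rod list (0.66 ± 0.29, adjusted p = 0.0244), and in horizontal cells with the rod list (0.93 ± 0.34, adjusted p = 0.00808). In cones, rods and both bipolar classes it passed under none of the settings tried. The expectation takes the highest share, so it is an upper estimate wherever a list gene is made by the neurons themselves.

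**Figure D3:**
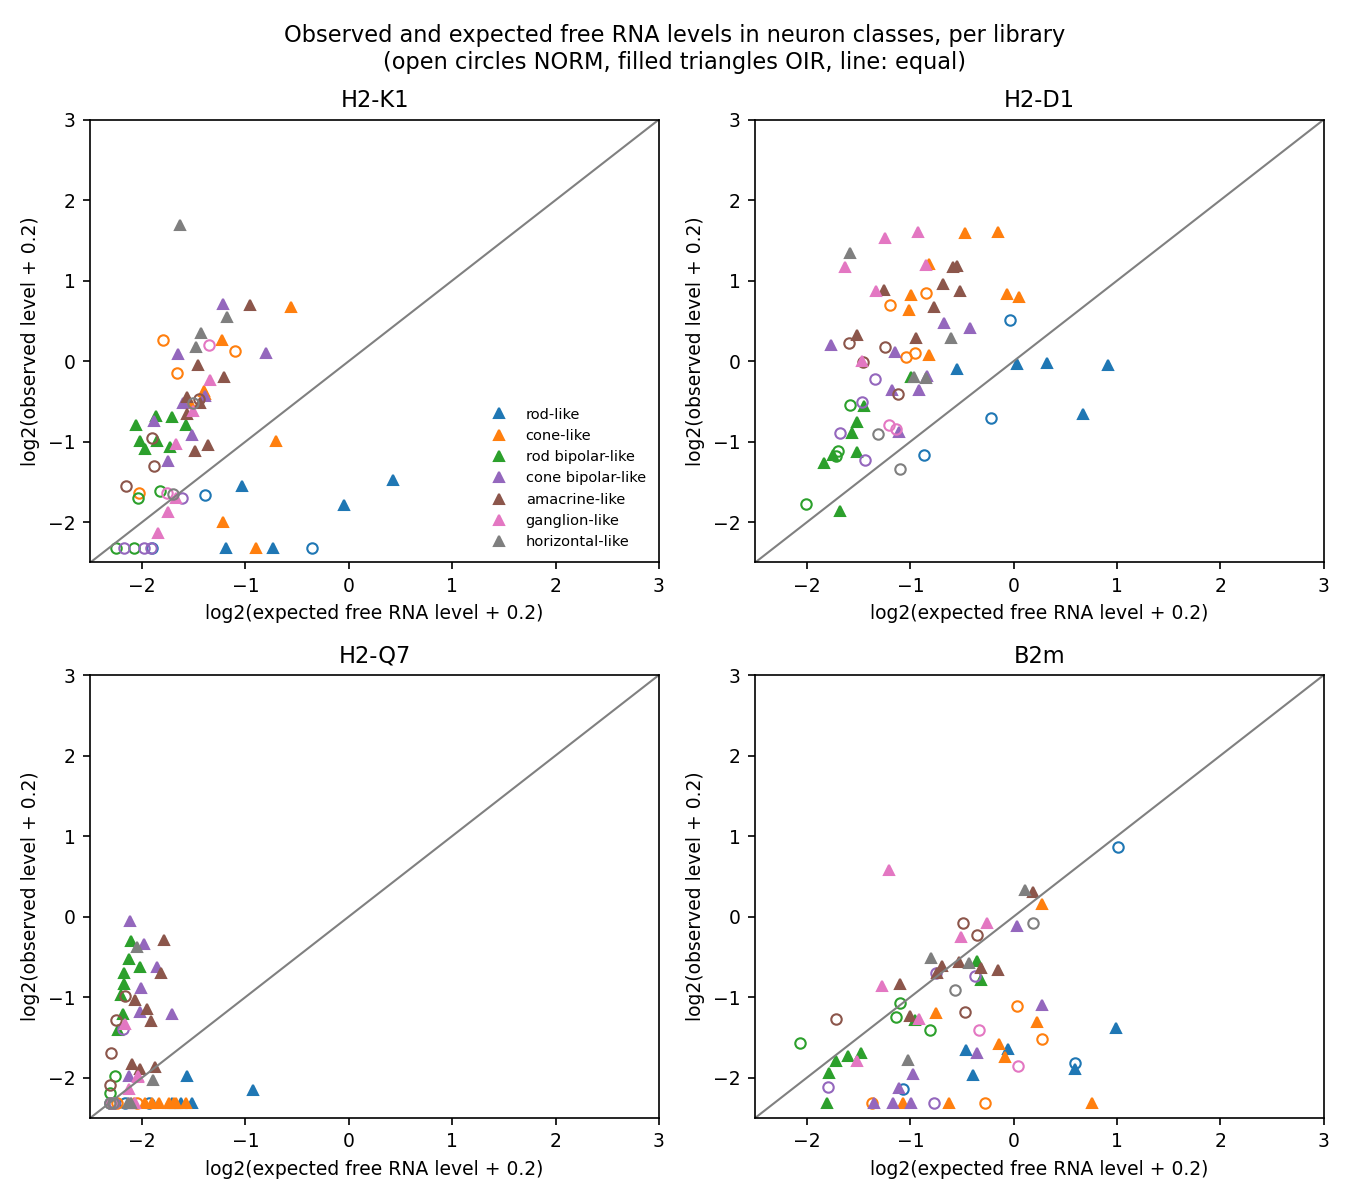
Observed level against expected ambient (free RNA) level, both as log2(level + 0.2), of 4 genes in the 7 neuron classes; each point is a class in 1 library (open circles NORM, filled triangles OIR) and the line marks equal values. H2-D1 lies above the line in all 12 libraries for amacrine cells and cones, whereas B2m lies below it in all 12 for cones.

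Between oxygen conditions the only gene to pass that was not chosen on that contrast was H2-Q7, in rod bipolar cells. The 4 NORM libraries held 0.0188 (P14, rod-depleted), 0.0533 (P14, whole), 0 and 0 (P17). In OIR at P14 the rod-depleted libraries held 0.610 and 0.449 and the whole-retina libraries 0.415, 0.231 and 0.309. At P17 the rod-depleted library held 0.360 and the whole-retina libraries 0.176 and 0.496. All 8 OIR libraries were above all 4 NORM libraries. The means were 0.0180 ± 0.0251 and 0.381 ± 0.142, and the log2 difference was 1.38 ± 0.24 (limma, adjusted p = 0.00892). The test took genes with a mean of at least 0.2 over the libraries of a class, and H2-Q7 reached that mean through its OIR libraries alone. It therefore had to be high in OIR to be tested, and with no filter on low values the call was lost (adjusted p = 0.119).

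The counts behind this are 4 H2-Q7 UMIs in 1960 NORM rod bipolar cells and 191 in 3634 OIR cells. The share of cells with a UMI was 0.204% in NORM and 4.38% in OIR, at median depths of 1078.5 and 1126 UMIs. With every cell thinned to 300 UMIs it was 0% and 1.39%, after 32 NORM and 46 OIR cells were left out as shallower. In cones, at median depths of 957 and 1065 UMIs, it was 0% in both conditions. The microglial list, with 16 of 16 genes detected in rod bipolar cells, stood there at 4.54% to 11.7% of its library level in NORM and 3.41% to 14.7% in OIR. The difference was 1.33 with cells holding a microglial or vascular marker UMI left out (adjusted p = 0.0287) and 1.34 with the expected ambient level subtracted (adjusted p = 0.018). Both fits kept the filter on low values, so they share the selection through the OIR level.

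Rod bipolar cells fell in 3 clusters, and the Pcp2-led one held most of them in both conditions (1854 of the NORM and 2801 of the OIR cells). Within it H2-Q7 was 0.0188 UMIs per 10000 in NORM (exact 95% interval 0.00510 to 0.0482) and 0.470 in OIR (0.395 to 0.556). At P14 the labels place 1 NORM and 1 OIR library of each fraction on the same sequencing run. In those pairs H2-Q7 went from 0.0188 to 0.449 (rod-depleted) and from 0.0533 to 0.415 (whole). At P17 no run is stated to hold both conditions, so run and oxygen cannot be told apart there. The call was lost when the P14 rod-depleted NORM library was dropped (1.31, adjusted p = 0.117), after thinning (1.60, adjusted p = 0.235), with the replicate number as a block (1.39, adjusted p = 0.0668) and, as given above, with no filter. Without the 2 libraries that held lens-like cells it was 1.47 (adjusted p = 0.0123), again after the filter that H2-Q7 met through its OIR level.

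Over all classes 46 pairs of gene and class entered the oxygen test and 2 passed, H2-Q7 and H2-K1 in rod bipolar cells, against 0.169% of 72857 pairs over all genes. H2-K1 was chosen on this contrast, so nothing is read from its share of that count. H2-Q7 entered the test through its OIR level, so its share is not read against the background either. H2-Q7 elsewhere did not pass: cone bipolar cells had 0.0453 ± 0.0907 in NORM and 0.333 ± 0.260 in OIR (0.88 ± 0.34, adjusted p = 0.461), and amacrine cells 0.165 ± 0.118 and 0.250 ± 0.191 (0.15 ± 0.27, adjusted p = 0.889). The Lhx4-led bipolar cluster, which as an unnamed cluster was not tested, held 0, 0.0338 and 0 in its NORM libraries and 0.124 to 1.05 in its 8 OIR libraries.

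H2-K1 in rod bipolar cells was 0.108, 0, 0.127 and 0 in the NORM libraries and 0.269 to 0.423 in the 8 OIR libraries, which do not overlap (0.0588 ± 0.0683 and 0.343 ± 0.0630, log2 difference 1.15 ± 0.22). The same-run pairs went from 0.108 to 0.376 and from 0 to 0.301. In cone bipolar cells it was 0 in 3 NORM libraries and 0.109 in the fourth (P17, rod-depleted), against 0.222 to 1.44 in OIR (1.82 ± 0.36, 8 of 8 above). Horizontal cells had 0.119 and 0.495 in NORM and 0.934 to 3.02 in the 4 OIR libraries (2.02 ± 0.65). Müller glia (0.82 ± 0.28) and amacrine cells (0.76 ± 0.30) had overlapping ranges. In cones (-0.23 ± 0.52), ganglion cells (-0.65 ± 0.75) and microglia (-0.30 ± 0.40), as in pericytes (-0.06 ± 0.67), the difference was no larger than its standard error.

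**Figure D4:**
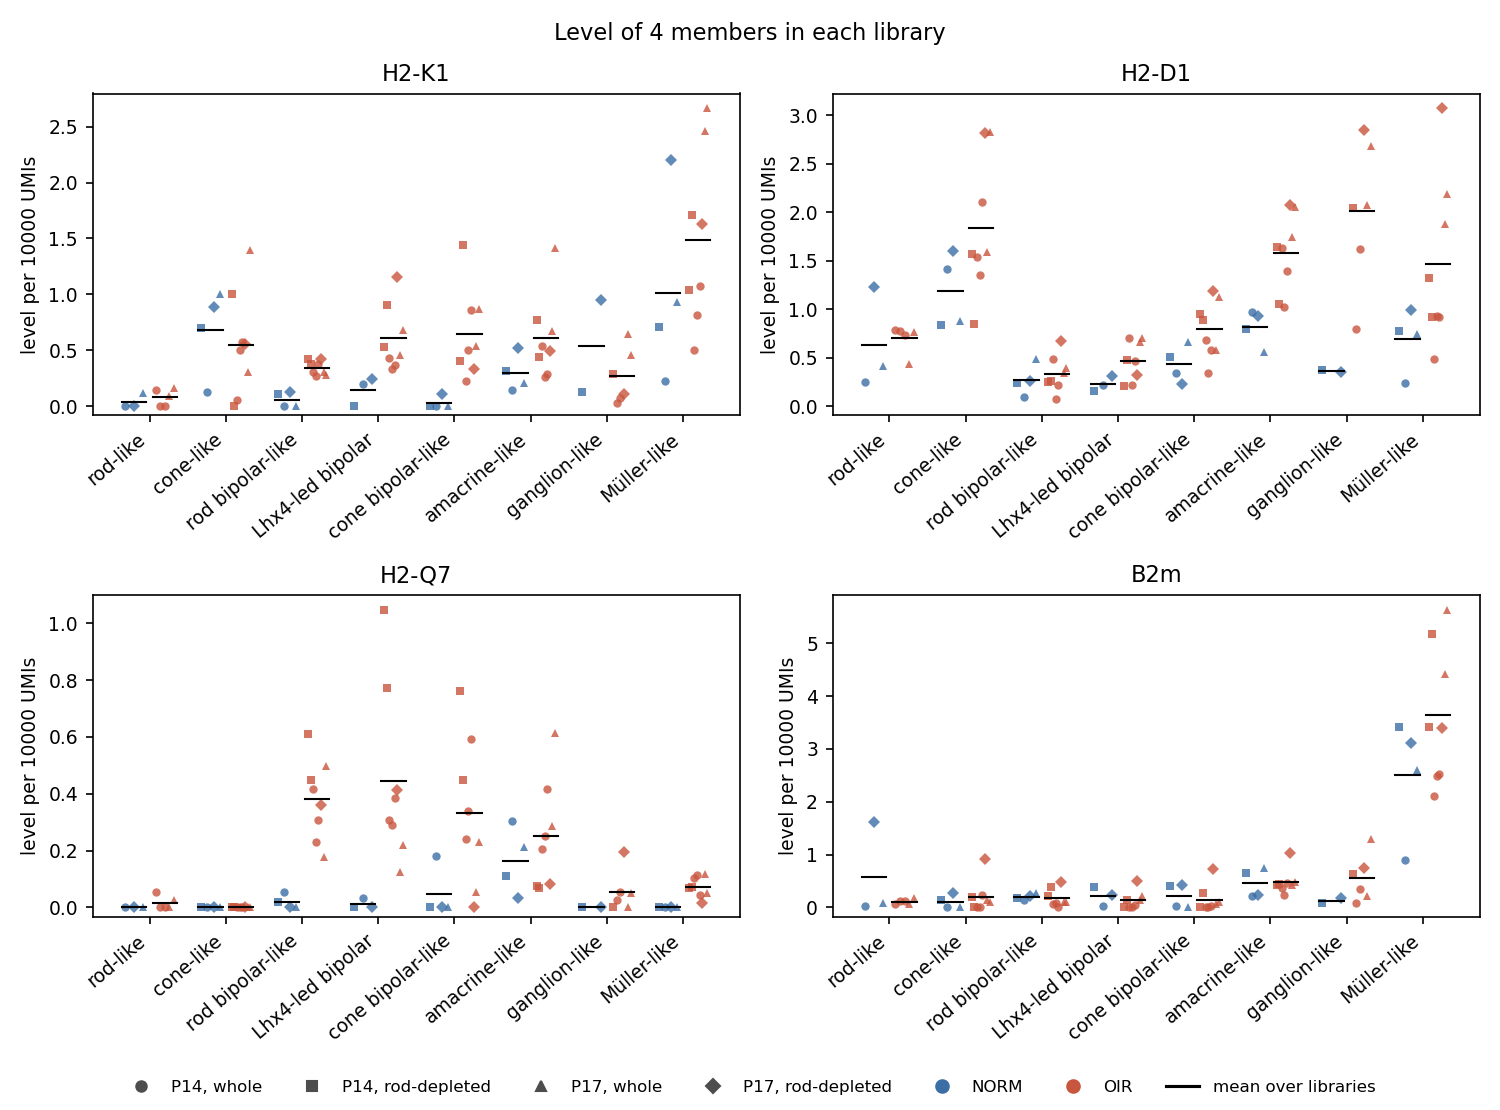
Level (UMIs per 10000) of H2-K1, H2-D1, H2-Q7 and B2m in each library by neuron class and in Müller glia, NORM (blue) and OIR (red) side by side; marker shapes give age and fraction, and lines the mean over libraries. In rod bipolar cells all 8 OIR libraries exceed the 4 NORM libraries for H2-Q7 and H2-K1, and for B2m the ranges overlap.

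H2-D1 is described in the same way. Ganglion cells had 0.375 and 0.355 in the 2 NORM libraries and 0.799 to 2.85 in the 6 OIR libraries, all above (2.21 ± 0.58). Amacrine cells had 0.556 to 0.970 in NORM and 1.02 to 2.07 in OIR, again with no overlap (0.84 ± 0.24). Horizontal cells went from 0.194 and 0.336 to 0.663 to 2.34 (1.93 ± 0.64), and Müller glia from 0.688 ± 0.321 to 1.47 ± 0.857 with overlap (1.04 ± 0.24). In rod bipolar cells the H2-D1 ranges overlapped (0.271 ± 0.162 and 0.335 ± 0.182, 0.27 ± 0.27). The ranges also overlapped in cones (0.57 ± 0.35), cone bipolar cells (0.70 ± 0.31), rods (0.76 ± 0.31), pericytes (-0.73 ± 0.44) and microglia (-0.11 ± 0.33). Whether the genes differ from each other in their response was not tested.

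The other genes did not pass between oxygen conditions in any class tested. B2m in Müller glia was 2.50 ± 1.12 (n = 4) in NORM and 3.64 ± 1.31 (n = 8) in OIR (0.71 ± 0.26, adjusted p = 0.331), in microglia the difference was -0.26 ± 0.24 (adjusted p = 0.96), and in rod bipolar cells it was 0.202 ± 0.0591 and 0.179 ± 0.168. In ganglion cells B2m was 0.0769 and 0.176 in the 2 NORM libraries and 0.0887 to 1.29 in the 6 OIR libraries, 5 of them above both (1.47 ± 0.75, adjusted p = 0.435). Tapbp in rods was 0.115 ± 0.135 (n = 3) and 0.434 ± 0.107 (n = 5), with all 5 OIR libraries above (0.78 ± 0.33, adjusted p = 0.452). Most NORM rods lay in 1 cluster and most OIR rods in another (960 of the NORM cells and 2129 of the OIR cells), so rod values compare different clusters. Psmb8 (0.27 ± 0.29) and Tap2 (0.31 ± 0.25) in Müller glia had adjusted p = 0.71 and 0.601.

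Between ages 0 of 46 pairs passed (6 had an unadjusted p below 0.05), against 0.0837% over all genes. Over all genes the unadjusted count ran from 281 of 6866 in microglia to 963 of 7404 in Müller glia. No run is stated to hold both ages, so run and age cannot be told apart. The nearest to passing were the heavy chains in Müller glia. At P14 H2-K1 there was 0.221 to 1.71 in 7 libraries, and at P17 it was 0.930 to 2.66 in 5, a difference of 1.20 ± 0.26 (limma, adjusted p = 0.0508). H2-D1 was 0.236 to 1.32 at P14 and 0.745 to 3.08 at P17 (1.07 ± 0.23, adjusted p = 0.0508). Both missed the threshold of 0.05 narrowly and passed under 3 other settings and when the P17 whole-retina NORM library was dropped. When the P17 rod-depleted OIR library was dropped, H2-K1 passed. In the test of whether the oxygen difference changed with age, 0 of 36 pairs passed (1 had an unadjusted p below 0.05), against 0.454% over all genes. The unadjusted count over all genes ran here from 196 of 6866 in microglia to 1466 of 6927 in rods. In rod bipolar cells H2-Q7 differed by 1.34 ± 0.34 at P14 and by 1.43 ± 0.37 at P17.

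Within classes the genes varied by cluster. Among OIR amacrine clusters, H2-D1 was 2.65 UMIs per 10000 (exact 95% interval 2.29 to 3.05) in the cluster led by Crabp1 and Nhlh2, against 0.801 (0.475 to 1.27) in the cluster led by Rims1, Slc5a7 and Chat, whose genes mark starburst amacrine cells. The same clusters held H2-K1 at 1.21 (0.970 to 1.49) and 0.0445 (0.00110 to 0.248), and H2-Q7 at 0.632 (0.463 to 0.843) and 0 UMIs in 96 cells. A cluster led by Cxcl14 combined H2-Q7 at 0.350 (0.242 to 0.489) with H2-K1 at only 0.134 (0.0712 to 0.229). Among OIR cone bipolar clusters H2-K1 ranged from 0.348 in the Otor-led to 0.936 in the Slit2-led cluster. The microglial class joined a Ctss-led cluster (206 cells, B2m 70.1, H2-D1 14.9) and a Cd74-led one (204 cells, B2m 64.0, H2-D1 19.5). These intervals cover counting error over pooled cells, and the clusters were not tested against each other.

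The wider pathway was read from lists of related genes. Of 248 pairs of class and pathway gene other than the 10, 0 passed the oxygen test in either direction, against 0.169% over all genes (limma). At an unadjusted p below 0.05 there were 32. Over all genes that count ran from 409 of 6866 in microglia to 1056 of 6881 in pericytes. Neither count is therefore read as a result about the pathway. The median differences over gene and class pairs were 0.28 for 58 pairs of class I loading and trimming genes, 0.28 for 58 pairs of the interferon gamma pathway, 0.20 for 51 pairs of interferon-induced genes, -0.02 for 26 pairs of the immunoproteasome and its activator, and -0.21 for 30 pairs of the constitutive catalytic subunits that Psmb8, Psmb9 and Psmb10 replace. They were -0.25 for 7 pairs of other class I heavy chains, 0.38 for 10 pairs of class II genes and 0.19 for 8 pairs of class I receptors. Over all genes the class medians ran from -0.01 to 0.17. At P17 alone 2.62% of pairs passed over all classes, and no share within cones or rods is given here. No run is stated to hold both conditions at that age, and rod values compare different clusters. Calr was higher in OIR cones at P17 (limma, 2.98 ± 0.64, adjusted p = 0.0306). In rods, with 2 libraries a condition, Stat2 was higher (1.65 ± 0.37, adjusted p = 0.0231) and Psmb5 (-1.54 ± 0.42, adjusted p = 0.0406) and Psmb6 (-1.24 ± 0.27, adjusted p = 0.0198) were lower. These calls are not read as particular to the pathway. Over libraries as a whole the loading chaperones Canx (7.92 ± 1.29), Hspa5 (7.01 ± 2.09) and Calr (6.67 ± 1.64, each SD, n = 12) were the most abundant of their list. Psmb6 was at 2.97 ± 0.692, against Psme1 at 1.01 ± 0.322, Jak1 at 1.29 ± 0.456 and Ifitm3 at 0.769 ± 0.651. Other class I heavy chains were led by H2-T3 at 0.117 ± 0.097. With age, 1 of 10 class II pairs passed (of 248 pathway pairs in all), against 0.0837% over all genes. It was Cd74, the invariant chain, higher in microglia at P17 than at P14 (limma, 1.99 ± 0.40, adjusted p = 0.00235). That class joins a Ctss-led and a Cd74-led cluster, and whether their mix changed with age was not tested. Run and age cannot be told apart here either.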

How the data were processed

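Drop-seq libraries of 12 samples in 8 groups (oxygen, age, fraction) were read from 1 deposited table. Per the submitters' processing notes, bcl2fastq and STAR 2.4.0 were used with mm10 (GRCm38). The sources used here give no annotation, no handling of reads that match several genes and no doublet step. The authors deposited natural log values, ln(1 + UMIs per 10000), from which whole UMIs were recovered for 100% of values within 0.05. Of 31271 columns, 5799 in 7 sets match no sample and were not used. The P14 whole-retina NORM columns carry replicate number 8, not 1, and were matched on condition, age and fraction, so that match is less sure.

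Cells with at least 200 genes were clustered with Scanpy 1.11.5 (2000 variable genes without the members or pathway lists, 30 components, 15 neighbours, Leiden resolution 1, leidenalg 0.10.2, Python 3.11.15) and named from marker lists. A name needed at least 3 detected markers. Mean levels per class and library (at least 20 cells) were tested as log2(level + 0.2) with limma 3.58.1 in R 4.3.3 on all genes with a mean of at least 0.2 that were above 0 in at least 3 libraries. The additive fit had oxygen, age and fraction. P-values are two-sided and Benjamini-Hochberg adjusted within a class, with a threshold of 0.05. With the added 0.2, differences of low genes come out too small. Classes needed 2 NORM and 2 OIR libraries. The scripts were tested on simulated data. Intervals at 95% are exact (SciPy 1.17.1). UMI totals per library ran from 325667 to 7855712 and limit genes near 0.

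The rule named all 10 members in every class. The text gives the classes that each result turns on, and the plot of levels by class shows the rest. The 5 genes most like H2-K1 and B2m over class means were named, except 1 that is not reported here. From the pathway lists the most abundant genes and those past the threshold were named. The members and lists were chosen with earlier results of these data known. Replicate numbers name libraries and no label ties them to a shared animal or day. Alternatives were the pseudocount, the filter, cluster resolution, minimum cells, thinning, ambient estimates, a replicate block and leaving out each library.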

Additional observations from a re-analysis of the deposited data

Results flagged for a closer look

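In 4 cases a value lay far from the other libraries of its group by Dixon's test at 95%, out of 61 groups of 4 to 10 libraries tested, and chance alone flags about 1 in 20 groups. B2m in amacrine cells was 1.03 in the rod-depleted OIR library at P17, where the other 7 OIR libraries ran from 0.226 to 0.477. That library also had the highest microglia-like share, 5.722%, and the part of this in the value was not tested. H2-K1 in cone bipolar cells was 0.109 in the rod-depleted NORM library at P17 and 0 in the other 3 NORM libraries. H2-Q7 in cone bipolar cells was 0.181 in the P14 whole-retina NORM library and 0 in the other 3. With 3 libraries tied at 0, any value above 0 is flagged whatever its size. The cone bipolar flags therefore do not measure a distance, and the rate of 1 in 20 does not hold for such ties. H2-D1 in rods was 0.433 in the first whole-retina OIR library at P17, below the other 4 OIR libraries at 0.732 to 0.787.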

How the results depend on the processing

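The count of genes past the threshold between OIR and NORM, 2 at first, was 0 without a filter on low values, 0 with the replicate block and 0 after thinning to 300 UMIs. It ranged from 0 to 2 when 1 library was left out, with 0 when the P14 rod-depleted NORM library was dropped. With the P14 whole-retina NORM library or any 1 P17 OIR library dropped it was 1, H2-Q7 in rod bipolar cells. That difference kept its direction in 25 of 25 alternatives and its call in 21, with adjusted p from 0.00715 to 0.0443. H2-Q7 entered the test through its OIR level, and alternatives that kept the filter share that selection. The tally therefore describes the settings and is not read as evidence for the difference. It lost the call with no filter (adjusted p = 0.119), with the replicate block (1.39, adjusted p = 0.0668), thinned (0.235) and with the P14 rod-depleted NORM library dropped (0.117). Between P17 and P14 the count rose from 0 to 2 with Leiden resolution 0.5, with at least 50 cells and with a pseudocount of 1 (Müller H2-D1 and H2-K1 each time), and ranged from 0 to 2 when 1 library was left out (2 with the P17 whole-retina NORM library dropped, 1 with the P17 rod-depleted OIR library dropped). The oxygen by age count was 0 throughout. The count above the ambient expectation ranged from 13 to 23 (18 at first, 17 with the replicate block, 23 with the median over list genes, which was added after seeing the data). With the rod list alone, the cone values turned to -0.62 for H2-D1, -1.19 for H2-K1 and -0.56 for Tapbp, and after thinning H2-D1 in horizontal cells was -0.33. The causes were not tested. Depth limits the genes near 0, such as Tap1 and Psmb9 in neurons.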
